A study of Mus musculus with 12 samples.

Results

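The collagen IV chain genes Col4a1, Col4a2, Col4a3, Col4a4, Col4a5 and Col4a6 were followed through the cardiomyocyte and non-cardiomyocyte fractions of mouse hearts injured at the neonatal stage. They were picked by gene symbol, with earlier results of these data known, and all 6 were found among the 46983 gene symbols of both deposited tables. The study compared mice of genotype MCM/+ Wls fl/fl with MCM/+ controls, both labelled strain BL6/C57. Wls encodes the carrier protein that cells need to secrete Wnt ligands. MCM is the usual short name of the tamoxifen-dependent MerCreMer recombinase, and every group carried it; the labels do not state its promoter. All mice received 3 daily doses of tamoxifen from postnatal day 1 to day 3 and a myocardial infarction on day 2, so there was no uninjured and no tamoxifen-free group. Hearts were taken 2 weeks after surgery, although the labels call the cells adult. Cardiomyocytes (CM) and non-cardiomyocytes (NonCM, labelled as interstitial cells) came from the same mice, with 3 hearts per condition, which gave 4 groups of 3 libraries: CM control, CM Wls fl/fl, NonCM control and NonCM Wls fl/fl. The labels do not tie a library to a heart, and each p-value rests on the spread among 3 libraries per group, which may be partly technical.

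Collagen IV is the sheet-forming collagen of basement membranes. Its chains wind around each other in fixed combinations before secretion: the Col4a1 and Col4a2 chains form the network found under nearly all endothelium and around each cardiomyocyte, the Col4a3, Col4a4 and Col4a5 chains form the network of the kidney glomerulus, and the Col4a5 and Col4a6 chains form a network known from smooth muscle and some epithelia. In the heart, endothelial cells, pericytes and fibroblasts are known producers. The genes lie in pairs that are transcribed away from each other.

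In the mm10 annotation (GENCODE M21), Col4a1 spans chr8:11198423-11312826 on the minus strand and Col4a2 chr8:11312805-11449287 on the plus strand. Their outermost starts lie 21 bases apart, and their exons overlap by 22 bases. Col4a4 (chr1:82448423-82586849, minus strand) and Col4a3 (chr1:82586921-82722059, plus strand) start 72 bases apart. Col4a6 (chrX:141165403-141474076, minus strand) and Col4a5 (chrX:141475385-141689234, plus strand) start 1309 bases apart. The RefSeq promoter table (GRCm38.p6, from 250 bases before to 50 bases after each start) held 5 of the 6 genes. The windows of Col4a1 (chr8:11312777-11313076, minus strand) and Col4a2 (chr8:11312555-11312854, plus strand) are printed because these genes carried most of the collagen IV reads and varied together between libraries, as given below. Capitals mark the 78 bases (chr8:11312777-11312854) that both windows hold, read from opposite strands.
Col4a1: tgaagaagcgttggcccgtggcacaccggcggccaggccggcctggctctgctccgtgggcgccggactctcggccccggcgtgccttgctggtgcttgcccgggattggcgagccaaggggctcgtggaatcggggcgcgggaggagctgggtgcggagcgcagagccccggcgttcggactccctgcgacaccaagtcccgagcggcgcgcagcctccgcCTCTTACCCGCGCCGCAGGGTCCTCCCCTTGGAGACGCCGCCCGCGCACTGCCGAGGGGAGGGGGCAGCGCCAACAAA
Col4a2: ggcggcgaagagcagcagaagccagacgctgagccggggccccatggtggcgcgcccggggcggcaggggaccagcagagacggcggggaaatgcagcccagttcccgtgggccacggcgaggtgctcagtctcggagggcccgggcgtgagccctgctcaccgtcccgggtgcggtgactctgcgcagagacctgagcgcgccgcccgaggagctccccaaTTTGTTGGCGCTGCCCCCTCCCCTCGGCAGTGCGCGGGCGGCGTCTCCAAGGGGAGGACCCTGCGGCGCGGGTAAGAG
Both strands of each window were searched for 4 motifs. The GC box GGGCGG occurred 1 time in the Col4a1 window and 3 times in the Col4a2 window, and the CCAAT box occurred 1 time in each. The letters CCCTCCCC, searched for as a CTC box, occurred 1 time in each window, inside the shared stretch, where 1 GC box also lay. TATAAA occurred in neither. Of all 32851 promoter windows of that length, 35.7% held GGGCGG, 37.4% CCAAT, 10.8% CCCTCCCC and 13.6% TATAAA.

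Whole reads could be recovered from the deposited values and came to 5171769 to 9775856 per CM library and 1160146 to 10281214 per NonCM library. The lowest was NonCM control replicate 1, where 1 read equals 5.54 normalized counts. Replicate 3 of each group lay about within counting error of a weighted mean of the other 2 libraries of its group. This was judged at the best-fitting weight, over 8397 to 10776 genes per group less those with the largest residuals. The mean squared residual of the genes kept was 1.0 to 1.04 times the counting variance. For replicates 1 and 2, treated the same way, it was 1.14 to 1.98 times. Whether replicate 3 is a separate heart was not tested; if it is not, the p-values below are too small, and genotype results are also given without it. Wls was lower in Wls fl/fl by limma in CM (log2 difference -1.45, adjusted p = 0.00389). This CM value was -1.60 with adjusted p = 0.0898 without replicate 3. Wls did not pass the limma test in NonCM (-0.28, adjusted p = 0.0831). There edgeR (adjusted p = 0.0333), limma-voom (0.0368) and limma without control replicate 1 (0.0489) called it lower. DESeq2 (adjusted p = 0.192) and the authors' deposited table (0.219) did not call NonCM Wls. Limma did not call it without any other single library (0.0519 to 0.334) or without replicate 3 of both genotypes (-0.24, adjusted p = 0.578). The fractions were mixtures: the 15 cardiomyocyte markers took 10.9 to 11.1% of reads in CM controls and 7.24 to 7.90% in NonCM controls, while the 12 fibroblast markers took 0.144 to 0.154% and 1.26 to 1.34%. None of the 15 blood endothelial markers was at 0 in either fraction, and they took 0.221 to 0.253% and 0.310 to 0.330%.

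Per exon length, Col4a1 and Col4a2 stood far above the other chains in every group. In CM controls the levels, as RPKM, reads per kilobase of exon scaled to the depth of the library (both fractions scaled together; mean ± SD, n = 3), were 153 ± 9.3 for Col4a1, 153 ± 7.4 for Col4a2, 28.0 ± 1.1 for Col4a5, 1.19 ± 0.12 for Col4a4, 0.869 ± 0.19 for Col4a3 and 0.298 ± 0.065 for Col4a6. The ranges of Col4a1 and Col4a2 overlapped there, and those of all other neighbours in this order did not. In NonCM controls the order was the same, with RPKM levels of 203 ± 8.2, 157 ± 5.7, 30.003 ± 1.1, 7.36 ± 0.36, 3.44 ± 0.76 and 2.22 ± 0.67, and only Col4a3 and Col4a6 overlapped. Col4a1 was the 95th most abundant of 20964 protein-coding genes in NonCM controls by this measure. The Wls fl/fl libraries kept the order in both fractions with no overlap between neighbours, at 182, 175, 28.7, 1.65, 0.907 and 0.230 RPKM in CM and 249, 184, 32.9, 8.69, 4.28 and 2.42 RPKM in NonCM. The 6 genes together took 0.216% ± 0.011 of all reads in CM controls, and 48.3% of those reads were from Col4a1 and 42.8% from Col4a2.

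**Figure D1:**
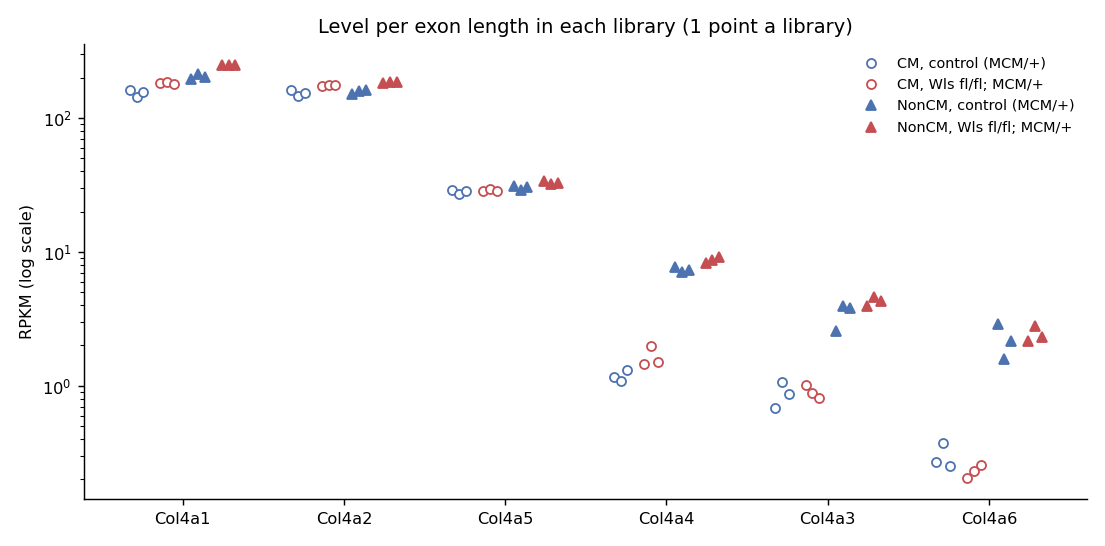
Level of each collagen IV gene in each of the 12 libraries, in RPKM on a log axis; open circles are CM, filled triangles NonCM, blue control and red Wls fl/fl. Col4a1 and Col4a2 lie at 143 to 249.6 RPKM in all libraries, and Col4a4, Col4a3 and Col4a6 are separated by fraction.

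Col4a1 was higher in Wls fl/fl hearts in the NonCM fraction. Its normalized read count was 10461, 11547 and 11011 in the 3 control libraries and 13525, 13518 and 13489 in the Wls fl/fl libraries. The groups did not overlap, and the Wls fl/fl libraries lay closer to each other than the controls did. Control replicate 1 rested on 1887 Col4a1 reads, against 15141 or more in the other NonCM libraries. Whether replicate 3 is a separate heart was not tested. The log2 difference (of values + 1) was 0.30 (SE 0.049, adjusted p = 0.0140 by limma over 13271 genes). Without replicate 3 of both genotypes the difference was still 0.30, with adjusted p = 0.454, and over all genes limma called 0 (1242 had an unadjusted p under 0.05) and edgeR 33. Such bulk values cannot tell apart more cells of a type from more RNA per cell.

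In the CM fraction Col4a1 read 6919, 6210 and 6717 normalized counts in controls and 7835, 7800 and 7701 in Wls fl/fl. Every Wls fl/fl library was again above every control, by a smaller margin. The log2 difference of 0.24 (SE 0.047) did not pass the limma test (adjusted p = 0.140 over 11944 genes). The call turned on the method: DESeq2 run on the recovered reads gave adjusted p = 0.0240, the authors' deposited table lists 0.233 with adjusted p = 0.0280, and edgeR gave 0.210. Without replicate 3 of both genotypes limma gave 0.25 with adjusted p = 0.980.

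Col4a2, the partner chain of Col4a1, moved the same way in NonCM by a smaller amount. It read 7107, 7699 and 7741 normalized counts in NonCM controls and 8744, 8914 and 8887 in NonCM Wls fl/fl libraries. The groups were separate, with control replicate 1 the lowest. The log2 difference was 0.24 (SE 0.048, adjusted p = 0.0285 by limma), and 0.26 with adjusted p = 0.491 without replicate 3. In CM, Col4a2 read 6105, 5606 and 5886 in controls and 6592, 6639 and 6637 in Wls fl/fl. These groups did not overlap either, but the log2 difference of 0.18 (SE 0.043) did not pass the test (adjusted p = 0.304).

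With the mean floor of 10 and all 6 libraries of a fraction, limma called none of the 4 minor chains. Col4a4, a chain of the glomerular network, came nearest: its NonCM counts were 588, 544 and 566 in controls and 641, 667 and 705 in Wls fl/fl, with no overlap. Its log2 difference in NonCM was 0.25 (SE 0.061, adjusted p = 0.0577 by limma and 0.0128 by edgeR). Its call depended on the setting: limma called it with a mean of 50 or more (adjusted p = 0.0427) and without control replicate 1 (0.00766), as did limma-voom (0.0133). DESeq2 (adjusted p = 0.0670), the authors' deposited table (0.0772), and limma with TMM scaling (0.0621) or no filter (0.0879) did not call Col4a4. Nor did limma without any other single library (0.0903 to 0.282). Without replicate 3 of both genotypes the difference was 0.21 by limma (adjusted p = 0.545) and 0.22 by edgeR (0.371). In CM, where it read 71.5, 66.6 and 80.8 against 89.3, 119 and 91.9, the difference was 0.44 (SE 0.14, adjusted p = 0.425).
Col4a5, shared by both minor networks, read 1480, 1410 and 1493 normalized counts in NonCM controls and 1662, 1555 and 1603 in NonCM Wls fl/fl. The groups did not overlap, and the log2 difference of 0.14 (SE 0.050) had adjusted p = 0.168. In CM its groups overlapped, at 1114, 1046 and 1095 against 1102, 1121 and 1090, with a log2 difference of 0.03 (SE 0.050). Col4a3, the third glomerular chain, read 183, 288 and 276 in NonCM controls and 286, 330 and 313 in NonCM Wls fl/fl. These groups overlapped, and the lowest value, in control replicate 1, rested on 33 reads. Its log2 difference was 0.34 (SE 0.16, adjusted p = 0.280), but 0.13 without control replicate 1, 0.18 by edgeR and 0.17 by limma-voom.
In CM, Col4a3 read 38.8, 61.7 and 49.6 in controls and 58.7, 50.02 and 46.6 in Wls fl/fl, with overlapping groups and a log2 difference of 0.07 (SE 0.19). Col4a6, which pairs with the Col4a5 chain, was the least abundant member. It read 166, 92.3 and 126 in NonCM controls and 127, 161 and 133 in NonCM Wls fl/fl, with overlapping groups. In CM it rested on 8 to 18 reads per library and read 12.3, 17.3 and 11.68 normalized counts in controls and 9.40, 10.4 and 11.65 in Wls fl/fl. These groups did not overlap, by less than the value of 1 read, with Wls fl/fl lower. Its log2 difference of -0.34 (SE 0.29, adjusted p = 0.772) was the only negative value among the 12.

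**Figure D2:**
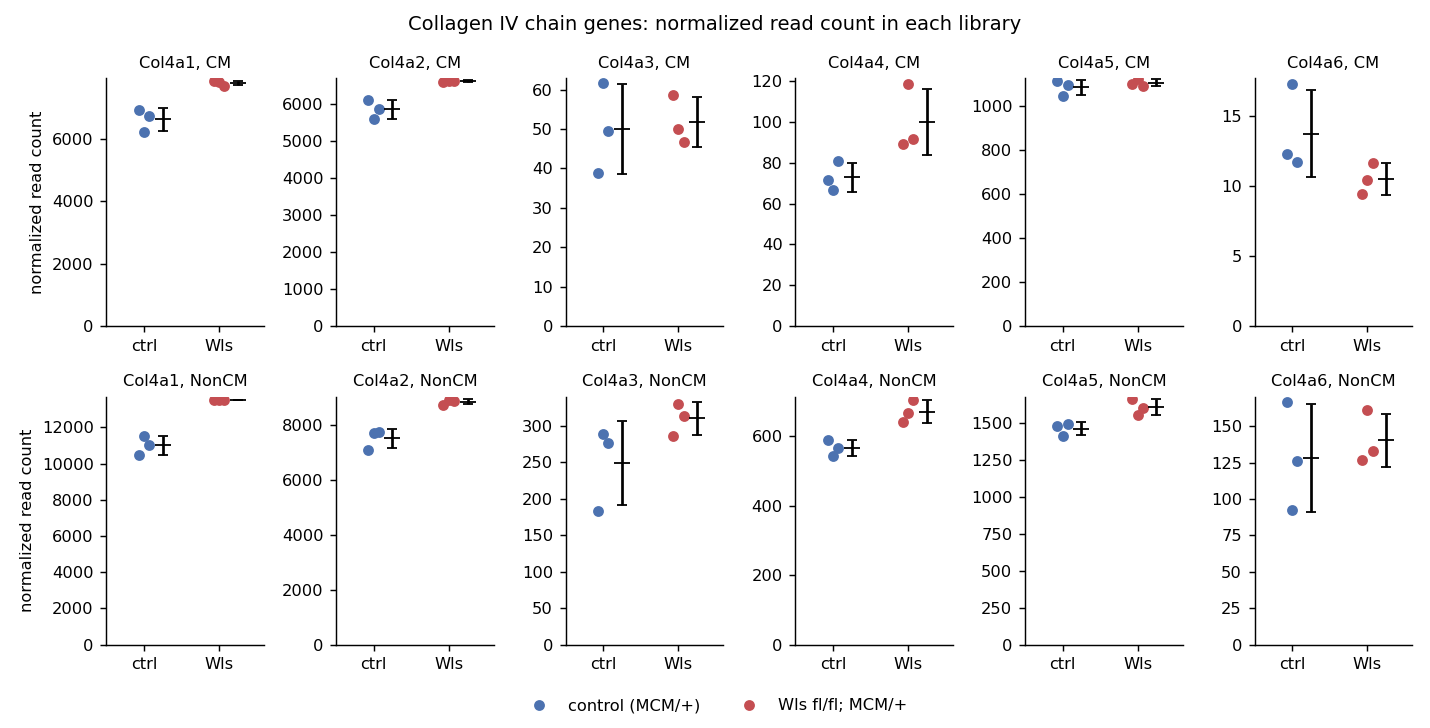
Normalized read count of each collagen IV gene in each library, with its own axis from 0 in each panel; points are libraries and the bars beside them mean ± SD of 3. The Wls fl/fl points lie above all control points for Col4a1, Col4a2 and Col4a4 in both fractions and for Col4a5 in NonCM.

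In NonCM, 2 of the 6 members were called higher by limma, where 2.47% of all genes tested were. edgeR called 3 of 6 higher, against 5.73% of all genes, and the authors' deposited table calls 2 of 6 higher, against 3.36%. Groups did not overlap, with Wls fl/fl higher, for 4 of 6 members and for 13.9% of all genes. In CM, 0 of 6 were called by limma, against 0.0921% of genes in either direction and 0.067% higher; 3 of the 6, and 8.74% of all genes, had an unadjusted p under 0.05. edgeR also called 0 of 6 in CM (0.067% of genes higher), the authors' deposited table calls 1 of 6 (0.146% higher), and 3 of 6 had groups that did not overlap with Wls fl/fl higher (7.97% of all genes). Col4a6 was the 1 member of 6 whose CM groups did not overlap with Wls fl/fl lower (7.05% of all genes). The members' median log2 difference was 0.24 in NonCM and 0.12 in CM, beside medians of 0.017 and 0.00020 over all genes tested.

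**Figure D3:**
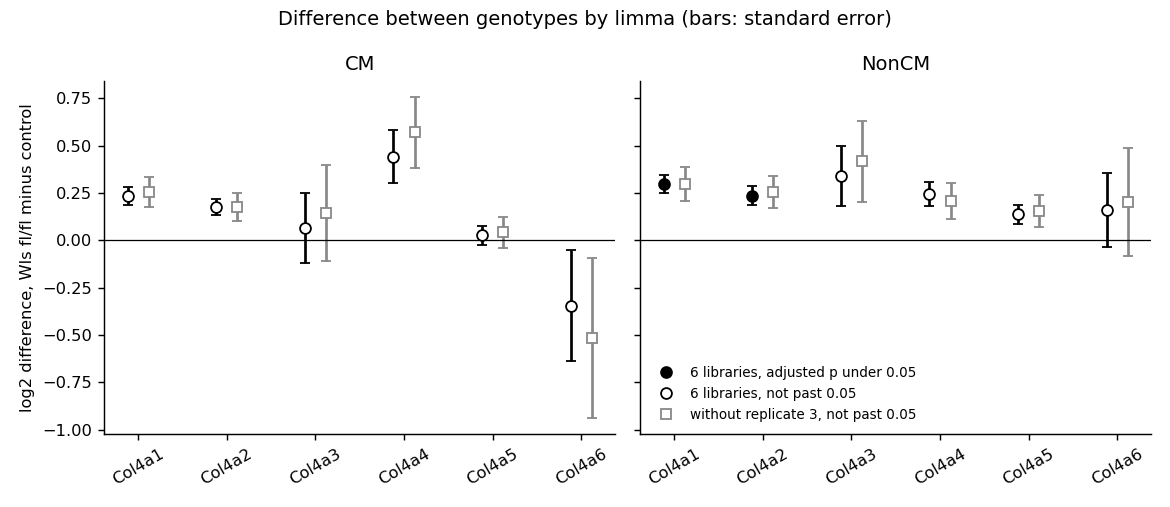
Log2 difference between Wls fl/fl and control for each member by limma, CM left and NonCM right, with standard errors; circles use all 6 libraries of a fraction and squares leave out replicate 3 of both genotypes. Filled symbols passed the adjusted threshold of 0.05, which only Col4a1 and Col4a2 in NonCM did with 6 libraries and no member did without replicate 3.

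Markers of several cell types moved with genotype in NonCM. Of 12 fibroblast markers, 8 were called higher, and the summed share of reads of the 12 was 1.26 to 1.34% in controls and 1.77 to 1.87% in Wls fl/fl. The 8 include the fibrillar collagens Col1a1, Col1a2 and Col3a1 (log2 differences 0.65, 0.60 and 0.65). Pdgfra, Dcn, Gsn and Fbln1 were not called. Of 15 cardiomyocyte markers, 11 were called lower, and their share was 7.24 to 7.90% and 6.26 to 6.46%. Of 6 measured activated fibroblast markers, 3 were called higher (0.0722 to 0.0918% and 0.140 to 0.153% of reads), of 11 macrophage markers 2 (0.136 to 0.170% and 0.191 to 0.206%), and of 6 epicardial and mesothelial markers 1 (0.00691 to 0.0134% and 0.0150 to 0.0168%). The part of these lists in the collagen IV differences was not tested. Of 15 blood endothelial markers, 0 were called higher and 1 lower, with shares of 0.310 to 0.330% and 0.284 to 0.302%. Of 8 pericyte markers, 0 were called higher and 1 lower (0.146 to 0.149% and 0.143 to 0.147%). The 1 called lower was Abcc9 (-0.22, adjusted p = 0.0374 by limma), named after its value was seen. It was abundant, with a mean of 3183 normalized counts in NonCM controls. Like the 15 cardiomyocyte markers, Abcc9 was lower in NonCM than in CM controls (-0.64, adjusted p = 2.45e-09 by edgeR). A pericyte sum without Abcc9 was not tested. Set against these sums, NonCM Col4a1 was higher in Wls fl/fl by 0.45 on the log2 scale relative to blood endothelial markers. It was higher by 0.36 relative to pericyte and by 0.57 relative to cardiomyocyte markers, and fell by 0.16 relative to fibroblast markers. In CM, Col4a1 was higher relative to all these sums, by 0.30, 0.22, 0.21 and 0.23 in the same order. In each case the groups of 3 did not overlap (exact two-sided permutation p = 0.1, the smallest the design allows). Which cells gave the Col4a1 reads was not tested. The fibroblast sum includes Col1a1, Col1a2 and Col3a1, and a sum without these collagens was not tested. With the cardiomyocyte marker score as a covariate the Col4a1 difference was 0.13 (SE 0.25), and with the blood endothelial score 0.36 (SE 0.078, adjusted p = 0.0765). The shares of both lists did not overlap between genotypes, so neither fit can fully separate its score from genotype. With the cardiomyocyte score limma called 0 of 13271 genes. In CM, limma and edgeR called 0 of the 50 fibroblast, cardiomyocyte, blood endothelial and pericyte markers, and DESeq2 called 1. Before adjustment, 7 of these markers passed 0.05 by limma, beside 8.74% of all genes.

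The chains differed in how they divided between the fractions of control hearts. By edgeR on the recovered reads of all 12 libraries, 4 of 6 members were called higher in NonCM, where 28.1% of all genes were. Col4a6 was higher in NonCM by 2.74 on the log2 scale (SE 0.24, adjusted p = 4.22e-09), Col4a4 by 2.59 (SE 0.10, adjusted p = 1.82e-14) and Col4a3 by 2.12 (SE 0.14, adjusted p = 1.14e-10). Col4a1 was higher by only 0.41 (SE 0.055, adjusted p = 2.25e-06). Col4a5 (0.09, SE 0.053, adjusted p = 0.145) and Col4a2 (0.03, SE 0.054, adjusted p = 0.658) did not pass the test. Scaling by library totals alone moved the median of all genes by 0.25 toward NonCM, and all 6 members were then called, so the calls of Col4a2 (0.29) and Col4a5 (0.35) depend on the scaling. On the same contrast the median was 0.05 over 15 blood endothelial markers, 0.07 over 8 pericyte markers, 2.95 over 12 fibroblast markers and -0.89 over 15 cardiomyocyte markers. It was 0.20 over 6 measured smooth muscle, 2.42 over 6 lymphatic endothelial and 2.01 over 6 measured activated fibroblast markers. Over 7 epicardial and mesothelial markers it was 1.85, and over 11 macrophage markers 4.35. More than 1 list thus lay near each group of members. Which cells gave the reads was not tested.

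**Figure D4:**
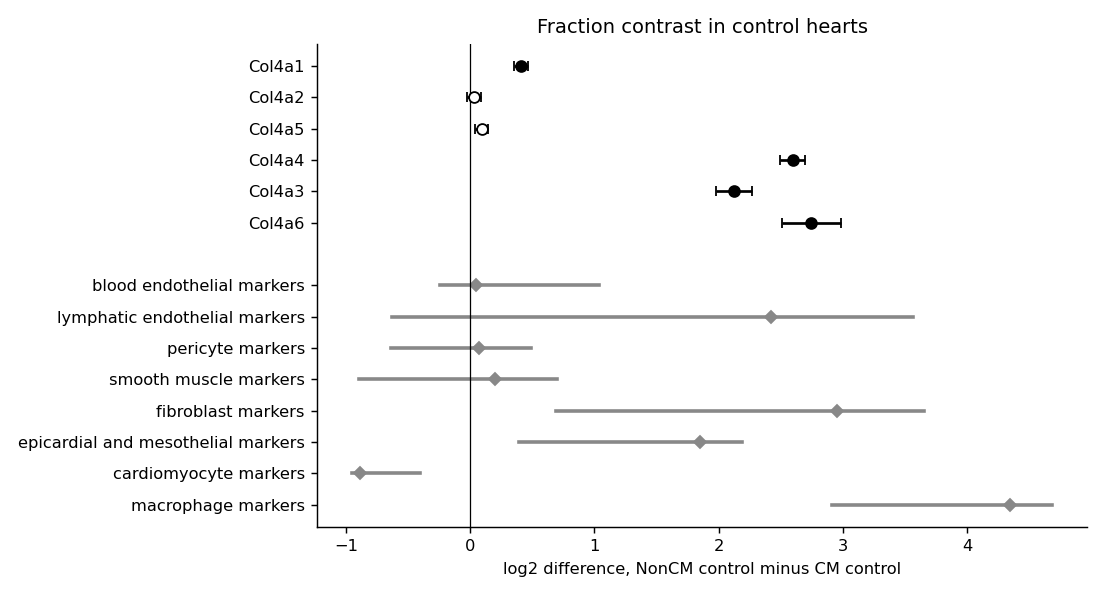
Log2 difference between NonCM and CM control libraries for the 6 members (circles with standard errors, filled where called by edgeR) and for marker lists (diamond at the median, bar from lowest to highest gene). Col4a2 and Col4a5 lie near the medians of blood endothelial, pericyte and smooth muscle markers. Col4a3, Col4a4 and Col4a6 lie between 2.12 and 2.74, where the medians of epicardial and mesothelial, lymphatic endothelial and fibroblast markers are 1.85, 2.42 and 2.95.

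No member showed a genotype effect that differed between fractions by the joint edgeR test. The interaction, NonCM effect minus CM effect, was 0.04 (SE 0.077, adjusted p = 0.871) for Col4a1 and 0.04 (SE 0.075, adjusted p = 0.877) for Col4a2. Over the other 4 members it ran from -0.18 for Col4a4 to 0.61 for Col4a6, where the standard error was 0.40. It was called for 0 of 6 members by edgeR and by limma-voom, 0 had an unadjusted p under 0.05 by either, and 1.41% of all genes were called in either direction. The effect past the threshold in NonCM and not in CM is thus not shown to differ.

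The balance of Col4a1 to Col4a2, whose chains assemble together, differed by fraction more than by genotype. Counted in reads per kilobase of exon, the ratio was 0.9997 ± 0.016 (SD, n = 3) in CM controls and 1.30 ± 0.035 in NonCM controls. In Wls fl/fl it was 1.04 ± 0.013 and 1.35 ± 0.015. The 3 libraries of each group were apart from those of the other genotype and of the other fraction in all 4 comparisons, with exact two-sided permutation p = 0.1, the smallest that 20 arrangements allow (0.171 adjusted over 12 ratio tests). The genotype difference was 0.06 on the log2 scale in each fraction, and the fraction difference 0.38 in each genotype. With the longest transcript as length the ratio was 1.10 in CM controls, so near-equal levels there depend on the length used. Reads in the 22 overlapping bases could belong to either gene, since no source used here states whether counting used strand.
The Col4a5 to Col4a6 ratio was 97.0 ± 22 in CM controls and 14.3 ± 3.8 in NonCM controls, with no overlap. The Col4a4 to Col4a3 ratio was 1.42 ± 0.37 and 2.24 ± 0.68, also without overlap (both p = 0.1 by the exact permutation test). Its highest value, 3.02, was in NonCM control replicate 1, where Col4a3 had 33 reads, and in Wls fl/fl the fractions overlapped (1.84 ± 0.40 and 2.04 ± 0.12, exact permutation p = 0.6). The Col4a5 to Col4a6 ratio was also apart in Wls fl/fl, at 126 ± 14 and 13.8 ± 2.1. Neither of these ratios separated the genotypes in either fraction.

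**Figure D5:**
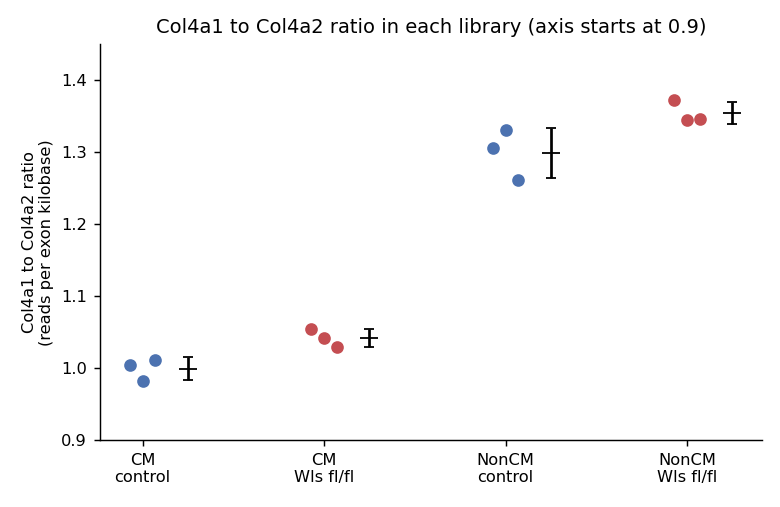
Ratio of Col4a1 to Col4a2 in reads per kilobase of exon in each library, with mean ± SD of 3 beside the points; the axis starts at 0.9. CM libraries lie between 0.982 and 1.054 and NonCM libraries between 1.26 and 1.37.

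Genes that work with collagen IV were taken from 6 lists. Over all genes tested in NonCM, limma called 2.47% higher in Wls fl/fl. Of 17 measured basement membrane partners, 7 were called higher and 0 lower in NonCM Wls fl/fl (list median 0.31). These included Col15a1 (log2 difference 0.60, adjusted p = 0.00112), a collagen that links basement membrane to the matrix below, Sparc (0.32, adjusted p = 0.00659), a collagen-binding matricellular protein, and the laminin chains Lamb1 (0.30, adjusted p = 0.0144) and Lamc1 (0.37, adjusted p = 0.0146). Of 17 genes for collagen folding and secretion, Serpinh1, the collagen chaperone HSP47, was the only call (0.36, adjusted p = 0.0236), although 15 of the 17 had positive values. Of 6 crosslinking genes, the lysyl oxidases Loxl1 (0.54, adjusted p = 0.00138) and Loxl2 (0.56, adjusted p = 0.00153) rose. All 6 had positive values, but Lox, Loxl3, Loxl4 and Pxdn were not called. Pxdn, named after its value was seen, was at 0.25 (adjusted p = 0.156).
Of 8 measured receptors, Itgav, an integrin subunit, was the only call (0.28, adjusted p = 0.0360). Of 7 measured proteases and inhibitors, 4 rose: the gelatinase Mmp2 (0.35, adjusted p = 0.00388), its membrane-bound activator Mmp14 (0.40, adjusted p = 0.0113), and the inhibitors Timp2 (0.49, adjusted p = 0.00877) and Timp1 (1.47, adjusted p = 0.0484, from a control mean of 9.76 normalized counts). Of 8 measured fibrillar collagens, the main matrix of fibroblasts, 6 were called higher, with a list median of 0.62. The 4 of smallest p were Col3a1 (0.65, adjusted p = 0.000645), Col1a2 (0.60, adjusted p = 0.000865), Col1a1 (0.65, adjusted p = 0.00112) and Col5a2 (0.48, adjusted p = 0.00138). Col3a1, Col1a2 and Col1a1 are also on the fibroblast marker list above. All these values are from limma with 6 libraries, and 0 genes were called without replicate 3 of both genotypes.
In CM, limma, edgeR and DESeq2 called 0 of the 56 measured genes of the 6 lists. Before adjustment, 9 of them passed 0.05 by limma, beside 8.74% of all genes. The smallest unadjusted p-values per list belonged to P4ha1, a prolyl hydroxylase subunit (0.35, adjusted p = 0.280), Col5a3 (0.24, adjusted p = 0.446), Col5a2 (0.20, adjusted p = 0.452), Sparc (0.11, adjusted p = 0.521), Serpinh1 (0.21, adjusted p = 0.530), Lamb1 (-0.13, adjusted p = 0.543), Mmp2 (-0.13, adjusted p = 0.686), Lox (0.19, adjusted p = 0.762), Loxl2 (0.12, adjusted p = 0.766), Itgb3 (-0.32, adjusted p = 0.791), Itga1 (0.04, adjusted p = 0.895) and Timp4 (-0.11, adjusted p = 0.899), all by limma. In the fraction contrast of controls, 13 of 17 partners were called higher and 2 lower in NonCM, the laminin chains Lamb2 (-0.39) and Lamb3 (-0.64), which were named after their values were seen. Calls were 12 higher and 1 lower of 17 for folding, 6 and 0 of 6 for crosslinking, 4 and 2 of 9 for receptors, 4 and 0 of 7 for proteases and inhibitors, and 7 and 0 of 8 for fibrillar collagens. Over all 13993 genes tested, 3934 (28.1%) were called higher and 3803 lower in NonCM.

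Likeness to Col4a1 was ranked over 8426 genes with a mean of 50 or more in both tables, by the smaller of the Pearson r over the 6 CM libraries and over the 6 NonCM libraries. These libraries include both genotypes, so genes that differ by genotype rank high. Col4a2 ranked 1st, with r = 0.994 in CM and 0.983 in NonCM. The next were Tmem60 (0.961 and 0.967), Fbln2 (0.956 and 0.964), a basement membrane and elastic fibre protein, Fn1 (0.981 and 0.950), which encodes fibronectin, Parp14 (0.981 and 0.934) and Cnpy2 (0.923 and 0.927). Among the other members, Col4a4 ranked 44th, Col4a5 155th and Col4a3 2684th.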

How the data were processed

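Bulk RNA of 12 libraries was measured. The submitters' processing notes name STAR, DESeq2 and build mm10; no source used here gives versions, annotation or counting settings. Each deposited table, 1 per fraction, holds the authors' size-factor-normalized read counts (a signal) per library and, per the file headers, the authors' log2 fold change, its SE, the Wald score (deposited, not used) and p-values. Dividing by the value of 1 read gave whole reads for 100% of values within 0.01 reads. The collagen IV genes and all gene lists were chosen with earlier results of these data known.

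Genotypes were compared within a fraction with limma 3.58.1 (trend) on log2(value + 1), genes of mean 10 or more, Benjamini-Hochberg adjustment over all genes and a threshold of 0.05. Fractions and the interaction used edgeR 4.0.16 (quasi-likelihood, TMM, filterByExpr) on the recovered reads, since the tables were scaled separately. DESeq2 1.42.0 was an alternative. RPKM used the union of GENCODE M21 exons. Symbols were matched to that annotation, 93.7% to exactly 1 gene. Named pathway genes were the called members of smallest p, up to 4 per list and fraction, or the 2 of smallest p where none was called. The scripts were tested on simulated data. Replicates were numbered in accession order. Alternatives covered scaling, filter, pseudocount, tool, left-out libraries and marker covariates.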

Additional observations from a re-analysis of the deposited data

Results flagged for a closer look

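The genotype effect on Wls, the targeted gene, differed between fractions: the log2 difference in NonCM minus that in CM was 1.15 (adjusted p = 0.0103 by the joint edgeR test). Without replicate 3 of every group it was 1.39 with adjusted p = 0.243. No collagen IV gene passed this test. Groups of 3 libraries were not tested for outliers.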

How the results depend on the processing

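Directions and calls of Col4a1 and Col4a2 held under TMM scaling, a mean of 50 or more and pseudocounts of 0.5 and 5. In CM, the limma call of Col4a1 was gained with no filter (0.24, adjusted p = 0.0360) and with DESeq2 (0.23, adjusted p = 0.0240). In NonCM, calls were lost on leaving out single libraries: the Col4a1 difference ranged from 0.26 to 0.33 and its call was lost without Wls fl/fl replicate 2 (adjusted p = 0.0811) or 3 (0.111) or control replicate 3 (0.0768), and Col4a2 ranged from 0.20 to 0.26 and lost its call without Wls fl/fl replicate 1, 2 or 3 or control replicate 3 (up to 0.176), and with no filter (0.24, adjusted p = 0.0573). Without replicate 3 of both genotypes the values were 0.30 and 0.26 by limma, and 0.28 and 0.23 by edgeR, a fit added after seeing the data; neither was called. The NonCM call of Col4a4 was gained with edgeR, limma-voom, a mean of 50 or more and without control replicate 1. With marker covariates Col4a1 and Col4a2 were 0.13 and 0.11 (cardiomyocyte score) and 0.36 and 0.32 (blood endothelial score), not called. In NonCM these scores cannot be fully separated from genotype, and the cause was not tested.

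The sign turned, with no call, for CM Col4a3 without Wls fl/fl replicate 1 (-0.03) or control replicate 1 (-0.10), CM Col4a5 with the blood endothelial score (-0.032), NonCM Col4a6 without control replicate 2 (-0.054; 0.37 without control replicate 1), NonCM Col4a3 and Wls with the cardiomyocyte score (-0.63 and 0.44), and, without CM control replicate 2, the fraction contrast of Col4a2 (-0.011; up to 0.059 without CM control replicate 1) and the interaction of Col4a3 (-0.016). The fraction contrast of Col4a2 was called with library totals alone (0.29), where 5930 genes were higher and 2028 lower in NonCM, against 3934 and 3803.

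Genes called in all numbered 11 in CM, with 41 with no filter, 25 by DESeq2, 17 by limma-voom, 5 to 18 on leaving out a library, 2 without replicate 3 of both genotypes by limma and 2 by edgeR, and 22 and 24 with the fibroblast and blood endothelial scores. In NonCM they numbered 598, with 1446 by edgeR, 1477 by limma-voom, 77 to 1634 on leaving out a library, 0 and 33 without replicate 3 by limma and edgeR, and 0 and 168 with the cardiomyocyte and blood endothelial scores. A replicate block that pairs library numbers 6 apart as hearts, a pairing the labels do not state (same-number correlations 0.048 to 0.460), gave fraction differences of 0.41 for Col4a1 and 0.03 for Col4a2 and interactions of 0.04 for each. It moved interaction calls over all genes from 198 to 647 and changed no member's call. With 1160146 reads, NonCM control replicate 1 limits Col4a3 and Col4a6 most.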
